A study of Rattus norvegicus with 8 samples.

Results

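The proteasome is the protease complex that degrades most proteins tagged with ubiquitin in the cytosol and nucleus. Its barrel-shaped core, the 20S particle, is built from alpha and beta subunits, and the beta subunits carry the proteolytic sites. The 19S particle caps the barrel, binds ubiquitin chains, removes them and unfolds the substrate with a ring of ATPases. The genes examined here are those with symbols from Psma to Psmg followed by a digit, apart from the interferon-inducible catalytic genes Psmb8, Psmb9 and Psmb10, kept where the row held an annotated transcript. The rule found 45 genes among the 27742 rows of the gene table, with 1 row per symbol. By role, 8 are alpha genes, 8 beta genes, 6 ATPases of the 19S base, 11 non-ATPase subunits of the 19S particle, 7 assembly chaperones and 4 activators or inhibitors. The remaining gene, Psmc3ip, shares only the symbol pattern: it encodes a partner of the meiotic recombinases and no proteasome subunit. Psme3, the nuclear activator gene, had no row under that symbol.

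RNA came from the thoracic aorta of male wild-type Sprague Dawley rats, labelled as 12 weeks old and 180 to 200 g. The 4 control libraries came from rats given ethanol, the vehicle, and the 4 nitroglycerin libraries from rats given nitroglycerin (GTN), an organic nitrate that relaxes vessels, at 100 mg/kg under the skin. Both were dosed 3 times a day for 3 days, a schedule that the study uses to make the aorta tolerant to nitrates. Whether the libraries stand for separate animals is not stated, so p-values measure only the spread between these libraries. The RNA protocol mentions adipose tissue, whereas every sample is labelled aorta.

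Values are FPKM, sequenced fragments scaled to transcript length and library size, which allow levels of different genes to be compared but are relative within a library. Aligned sequence was 7.48 to 8.86 Gb in controls and 6.77 to 8.39 Gb in nitroglycerin libraries. The 100 most abundant rows took 51.7 to 71.4% of the summed FPKM in controls, the highest share being in control 1, and 47.4 to 50.4% in nitroglycerin libraries. Over all 12977 genes tested, the median log2 difference, nitroglycerin minus control, was 0.30 as deposited and 0.01 after each library was divided by its median-of-ratios factor (the median over genes of the ratio to the mean library). These factors ran from 0.742 to 0.996 in controls and from 1.07 to 1.22 in nitroglycerin libraries. The main results are therefore given as deposited and after this rescaling. Values given without a scaling are as deposited. Smooth muscle markers were abundant, and 6 of 7 listed genes had a row. They summed to 2020 to 2700 FPKM in controls and 1256 to 2636 FPKM in nitroglycerin libraries. Most of this was Acta2, with a mean of 1839 FPKM over the 8 libraries. The median log2 difference of the 6 was -0.27 as deposited, with 2 above 0 and 4 below. After rescaling it was -0.64, with 1 above and 5 below. Every rescaled nitroglycerin value of Myh11 and Cnn1 lay under every control (4.45% of all genes), and for 0 of the 6 the reverse held (3.78%). As deposited 0 of the 6 lay under every control (0.478%), and Lmod1 lay above every control (24.2%). Lmod1 had a log2 difference of 0.79 as deposited and 0.43 after rescaling. No gene of the 6 was called under either scaling. The 11 adipocyte markers summed to 13.9 to 37.9 FPKM in controls and 26.3 to 172.4 FPKM in nitroglycerin libraries, 172.4 being nitroglycerin 1. None of the 11 was at 0 in every library, and 0 of the 5 that could be tested were called. Endothelial markers summed to 33.0 to 54.8 FPKM in controls and 57.8 to 66.6 FPKM in nitroglycerin libraries, and 2 of 6 tested, Esam and Eng, were called higher (1.29% of all genes). As deposited 6 of the 6 were above 0 (86.6% of all genes), and after rescaling 5 were above and 1 below. After rescaling 0 of these 6 were called, and the sums overlapped, at 36.4 to 65.7 FPKM in controls and 54.2 to 55.6 FPKM in nitroglycerin libraries. Of the other marker lists, the macrophage gene Cd163 was called higher as deposited (adjusted p = 0.0492 by limma) and not after rescaling (0.16). The skeletal muscle gene Ckm was called lower under both scalings (adjusted p = 0.0492 and 0.0351). Other genes of these 2 lists went both ways. Of 5 tested macrophage genes, 4 were above 0 and 1 below as deposited, and 3 and 2 after rescaling. Of 5 tested skeletal muscle genes, 2 were above 0 and 3 below as deposited, and 1 and 4 after rescaling. The part of cell composition in the results below was not tested, and in bulk tissue fewer cells of a type and less RNA per cell cannot be told apart.

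No proteasome gene passed the threshold in the comparison of nitroglycerin with control, although the deposited values of all 43 that could be tested were higher in the nitroglycerin group. By limma on log2(FPKM + 1) with Benjamini-Hochberg adjustment over all genes, 0 of 43 reached an adjusted p under 0.05, against 1.35% of all genes tested (1.29% higher and 0.0616% lower), and adjusted p-values ran from 0.0589 to 0.949. The median log2 difference of the 43 was 0.39, with a range of 0.02 to 0.90, against 0.30 for all genes, 86.6% of which were above 0 and 13.4% below. At an unadjusted p under 0.05, 29 of 43 were higher and 0 lower, where the shares over all genes were 34.1% and 1.02%. In 19 of 43 every nitroglycerin library lay above every control, an arrangement found in 24.2% of all genes, and in 0 every one lay below (0.478%). After rescaling the median of the 43 was 0.03, against 0.01 for all genes, with 28 above 0 and 15 below (52.4% and 47.6% of all genes). Again 0 of 43 were called, where 0.131% of all genes were (0.0308% higher and 0.1% lower), and 4 were higher at an unadjusted p under 0.05 (5.5% of all genes) with 0 lower (6.44%). These were 2 genes of the activator and inhibitor group, 1 chaperone gene and Psmc3ip. Of the 31 tested genes of the 20S and 19S particles, 0 were among them. All nitroglycerin libraries lay above all controls for Psmd7, Psme2 and Psmc3ip (3.78% of all genes) and below them for Psmc6 and Psmd2 (4.45%).

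The uncalled differences were bounded. After rescaling, the 95% interval of the log2 difference lay between -1 and 1 for 42 of 43 genes, the exception being Psmb5, and 33 of 43 estimates were between -0.2 and 0.2. As deposited the number called differed with the rows tested and with the weighting of libraries. It was 7 of 40 when only genes with at least 1 FPKM in all 8 libraries were kept, where 12.4% of all genes were called higher. Restricting the table to annotated rows gave 4 (8.05%), and weighting libraries by their quality gave 13 (14.5%). Psmc3ip, which encodes no proteasome subunit, was among the 4 and among the 13. After rescaling the number was 0 under each of these settings.

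**Figure D1:**
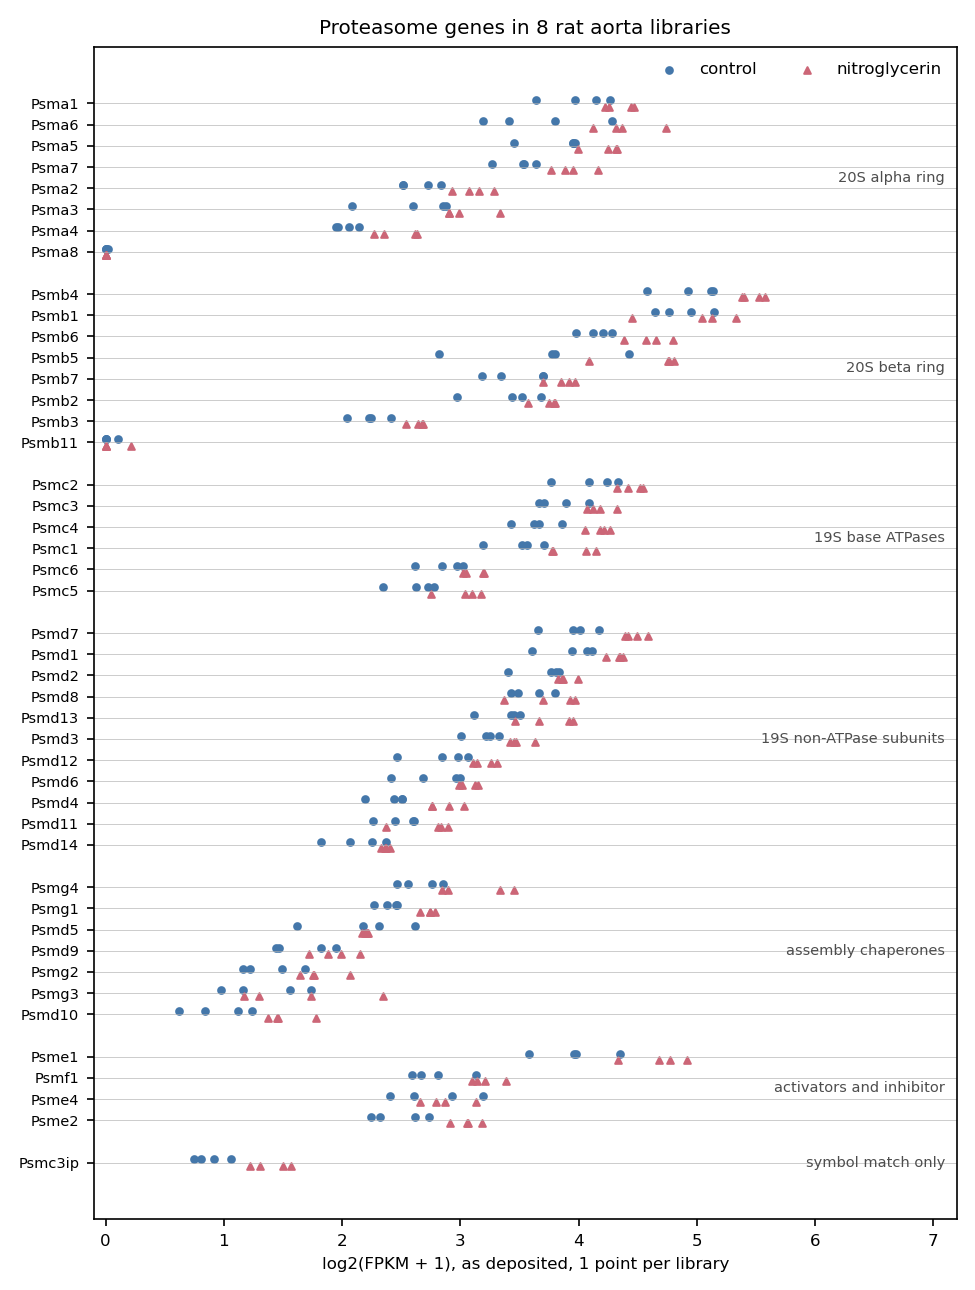
Level of each of the 45 genes in every library, as log2(FPKM + 1) on the horizontal axis, with genes grouped by role on the vertical axis (circles, control; triangles, nitroglycerin). Most genes lie between 2 and 5, Psma8 and Psmb11 lie near 0, and the triangles stand to the right of most circles in nearly every row.

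Summed over the 45 genes, the proteasome took 305.7, 441.4, 400.7 and 400.8 FPKM in controls 1 to 4 and 523.1, 496.5, 544.7 and 537.2 FPKM in nitroglycerin libraries 1 to 4. The groups did not overlap, and control 1 was the lowest library. After rescaling the same sums were 412.1, 443.2, 440.7 and 443.1 FPKM in controls and 451.6, 465.4, 458.6 and 441.5 FPKM in nitroglycerin libraries, and the groups overlapped, with nitroglycerin 4 below controls 2 and 4. Control 1 held the lowest deposited value of 33 of the 43 genes, as it did for 50.3% of all genes, while nitroglycerin 3 held the highest value of 21 and nitroglycerin 4 that of 13. Without control 1 the median log2 difference of the 43 as deposited was 0.30, and that of all genes was 0.24.

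**Figure D2:**
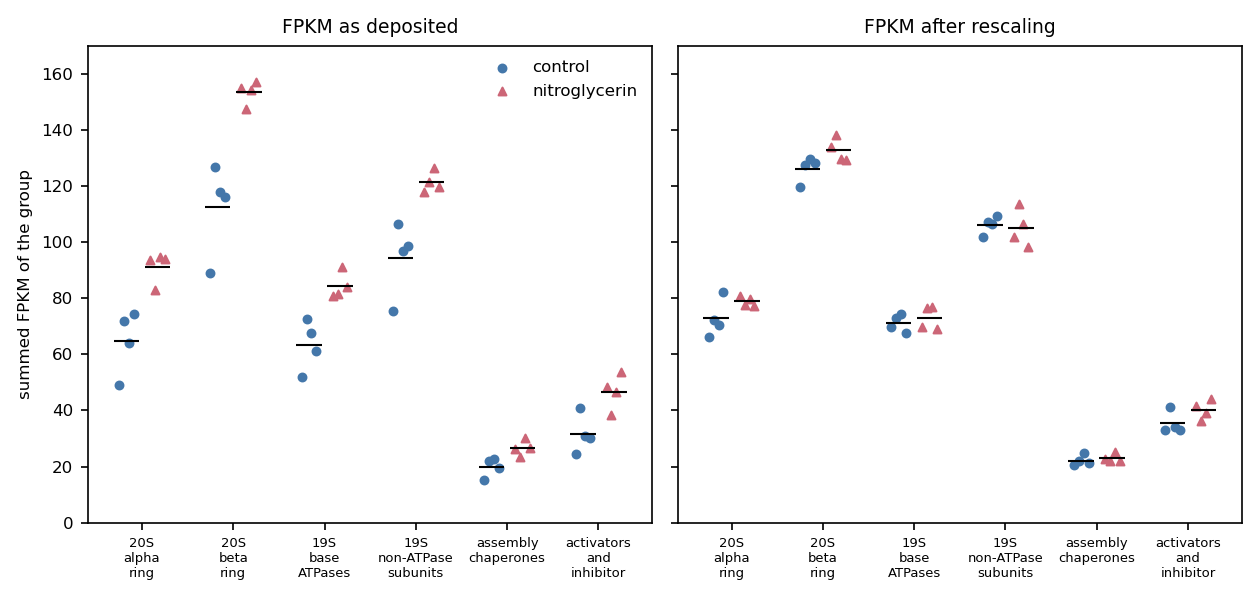
Summed FPKM of each role group per library (vertical axis) as deposited (left) and after rescaling (right), with circles for controls, triangles for nitroglycerin and bars for the means of 4 libraries. As deposited the groups of libraries are apart for every role group except the activators and inhibitor, at 24.6 to 41.0 against 38.5 to 53.7 FPKM. The beta ring is at 88.8 to 126.8 against 147.3 to 157.2 FPKM. After rescaling the groups of libraries overlap for every role group, with the beta ring at 119.7 to 129.5 against 129.2 to 138.0 FPKM.

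Levels differed between the subunits of the assembled particle. Psma8 and Psmb11, too low to be tested, are left out of the span that follows. Across the 31 tested genes of the 20S and 19S particles, the mean over 8 libraries ran from 3.79 FPKM for Psmd14 to 36.7 FPKM for Psmb4, a 9.69-fold span around a median of 11.9 FPKM, and 25 of the 31 lay between 5 and 20 FPKM. The spread between libraries of a group was set beside that of genes in the same range of levels, without matching level by level. Within groups the SD of log2(FPKM + 1) had a median of 0.20 over the 43 genes as deposited and 0.131 after rescaling. Over the 11118 genes with a mean between 1.25 and 36.7 FPKM, the range of the 43, the medians were 0.230 and 0.204. Of these genes, 61.4% had a larger SD than the proteasome median as deposited and 77.1% after rescaling. This was not tested, since the 43 genes are not independent of each other.

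The beta ring holds the 3 constitutive catalytic subunits, and Psmb5, which encodes the chymotrypsin-like one, had the largest log2 difference of the 43 genes. Its level was 6.08, 13.0, 12.7 and 20.5 FPKM in controls 1 to 4 and 26.2, 16.1, 26.9 and 26.0 FPKM in nitroglycerin libraries 1 to 4. Nitroglycerin 2 lay below control 4, so the groups overlapped, and the controls were widely spread. It differed by 0.90 on the log2 scale (SE 0.32, adjusted p = 0.0957 by limma) as deposited and by 0.53 (SE 0.27, adjusted p = 0.487) after rescaling. Psmb6, the gene of the caspase-like subunit, was at 14.7, 18.4, 17.4 and 16.4 FPKM in controls and 22.8, 24.2, 26.8 and 19.9 FPKM in nitroglycerin libraries. These groups did not overlap as deposited, but after rescaling they ran from 18.1 to 19.9 and from 16.4 to 22.7 FPKM and did. Psmb7, the gene of the trypsin-like subunit, was at 8.11, 12.0, 12.0 and 9.15 FPKM in controls and 13.4, 12.0, 14.1 and 14.7 FPKM in nitroglycerin libraries. Its log2 difference fell from 0.38 (SE 0.15) to 0.02 (SE 0.09) on rescaling. A second row, described in the table as a beta 6-like gene, had a mean of 1.82 FPKM, so reads of Psmb6 may be divided between rows and its value is uncertain.

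Among the 7 tested genes of the beta ring, the structural genes Psmb4 and Psmb3 were the most and the least abundant. Psmb4 was at 22.9, 34.1, 33.8 and 29.3 FPKM in controls and 40.7, 45.1, 46.7 and 41.1 FPKM in nitroglycerin libraries, with no overlap. Psmb3 was at 3.13, 4.32, 3.75 and 3.68 FPKM in controls and 4.83, 5.41, 5.41 and 5.25 FPKM in nitroglycerin libraries, again apart, with a log2 difference of 0.40 (SE 0.11, adjusted p = 0.065 by limma). After rescaling the groups of both genes overlapped, with Psmb4 at 30.9 to 37.2 FPKM in controls and 33.8 to 42.3 FPKM in nitroglycerin libraries. Psmb4 then differed by 0.15 (SE 0.11) and Psmb3 by 0.09 (SE 0.08). Psmb1 went the other way in 1 library. It was at 24.0, 34.4, 26.2 and 29.9 FPKM in controls and 34.0, 32.0, 20.9 and 39.2 FPKM in nitroglycerin libraries, where nitroglycerin 3 was the lowest of all 8. Of the 7 tested beta genes, 5 were higher with deposited values (34.1% of all genes) and 0 with rescaled values (5.5%) when an unadjusted p under 0.05 was required, and the median of the 7 was 0.40 with deposited and 0.09 with rescaled values. Psmb11, the beta gene of thymic epithelium, was listed at 0.0752 FPKM in control 2 and 0.159 FPKM in nitroglycerin 3 and at 0 in the other six libraries.

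The alpha ring gates the entry to the barrel, and its 7 tested genes had a median log2 difference of 0.44 as deposited and 0.10 after rescaling. Psma6 stood highest among them. It was at 8.12, 12.9, 9.63 and 18.4 FPKM in controls and 25.6, 16.4, 19.6 and 18.96 FPKM in nitroglycerin libraries, with nitroglycerin 2 below control 4, as for Psmb5. It differed by 0.72 (SE 0.24, adjusted p = 0.0885 by limma) as deposited and 0.35 (SE 0.21, adjusted p = 0.55) after rescaling. Psma1, the most abundant alpha gene, was at 11.5, 18.2, 14.7 and 16.7 FPKM in controls and 18.1, 17.7, 20.7 and 21.1 FPKM in nitroglycerin libraries. Control 2 overlapped the nitroglycerin group there, and the log2 difference of 0.34 as deposited became -0.03 after rescaling. Psma4, the least abundant, was at 2.90, 3.41, 2.86 and 3.15 FPKM in controls and 4.10, 3.81, 5.14 and 5.22 FPKM in nitroglycerin libraries, without overlap. In 5 of the 7 all nitroglycerin libraries lay above all controls as deposited (24.2% of all genes), and in 0 of 7 after rescaling (3.78%). Psma3 is uncertain because a further row is described as alpha 3-like, although that row averaged 0.0389 FPKM. Psma8, the alpha gene of the testis, was listed at 0.0165 FPKM in control 1 and at 0 in the other libraries.

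Some proteasome promoters carry the antioxidant response element, the site of the stress factors encoded by Nfe2l1 and Nfe2l2, so promoter sequences were read for the genes. RefSeq promoters of the GRCr8 assembly, from 250 bases before to 50 after the start, were found for 40 of the 45 genes. The core TGACNNNGC, where N is any base, was present on either strand in 8 of 40, or 20%, against 12.1% of all 33469 promoters of that length and 14.6% of the 8280 promoters of tested genes. CCAAT was present in 19 of 40 (37.5% of all promoters and 36.9% of tested genes), the GC box GGGCGG in 30 (33.1% of all and 63.7% of tested genes) and the E-box CACGTG in 4 (6.42% and 9.35%). The 3 sequences that follow are the 250 bases before the start of Psmb5, Psmb6 and Psma3, 5′ to 3′ on the strand of the gene, chosen because they show the core within 60 bases of the start in genes of the 20S particle. Capitals mark the match. They lie at chr15:32047380-32047629 (minus strand), chr10:55737638-55737887 (plus strand) and chr6:95219499-95219748 (plus strand) in GRCr8.
Psmb5: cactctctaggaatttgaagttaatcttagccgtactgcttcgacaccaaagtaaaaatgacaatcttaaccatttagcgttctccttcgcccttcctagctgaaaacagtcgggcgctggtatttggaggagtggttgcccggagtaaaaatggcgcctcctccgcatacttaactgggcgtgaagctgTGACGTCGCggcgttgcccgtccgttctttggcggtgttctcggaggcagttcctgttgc
Psmb6: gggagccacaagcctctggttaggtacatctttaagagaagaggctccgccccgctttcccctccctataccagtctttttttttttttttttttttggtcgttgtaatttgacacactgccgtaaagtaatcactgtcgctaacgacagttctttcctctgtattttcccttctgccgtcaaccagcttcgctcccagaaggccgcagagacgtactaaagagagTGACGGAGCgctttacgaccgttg
Psma3: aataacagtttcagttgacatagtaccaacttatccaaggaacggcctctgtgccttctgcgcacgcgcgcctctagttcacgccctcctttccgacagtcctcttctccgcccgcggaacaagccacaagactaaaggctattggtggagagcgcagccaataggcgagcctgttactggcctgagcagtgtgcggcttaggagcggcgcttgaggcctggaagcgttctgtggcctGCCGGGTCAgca
The match begins 60 bases before the start in Psmb5 and 24 in Psmb6, and in Psma3 it is on the opposite strand and its leftmost base is 12 before the start. The other genes with the core were Psmb2, Psmd1, Psmd3, Psmd9 and Psme4. Over the 8 genes the log2 difference after rescaling ran from -0.25 for Psme4 to 0.53 for Psmb5, with 4 above 0 and 4 below. A match is a run of letters, and binding was not measured.

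The 19S base holds 6 ATPases that unfold the substrate, and Psmc4 had the lowest p of the 43 genes as deposited. It was at 9.75, 13.5, 11.3 and 11.7 FPKM in controls and 15.6, 17.6, 17.1 and 18.2 FPKM in nitroglycerin libraries, so the groups were apart. The means were 11.6 ± 1.56 and 17.1 ± 1.09 FPKM (SD, n = 4), a log2 difference of 0.53 (SE 0.13, adjusted p = 0.0589 by limma). After rescaling the difference was 0.17 (SE 0.08, adjusted p = 0.468), with nitroglycerin 1 at 13.5 FPKM just under control 2 at 13.6 FPKM. Psmc2 was the most abundant ATPase gene, at 12.6 to 19.1 FPKM in controls and 19.1 to 22.3 FPKM in nitroglycerin libraries. Psmc5 was the least abundant, at 4.07 to 5.86 FPKM in controls and 5.73 to 8.04 FPKM in nitroglycerin libraries. Their log2 differences as deposited were 0.35 and 0.40. The median of the 6 was 0.37 as deposited and 0.02 after rescaling, and 3 of 6 were then below 0. Psmc6 was among those, at 6.85 to 7.51 FPKM in controls and 6.13 to 6.83 FPKM in nitroglycerin libraries after rescaling, groups that touched without overlapping.

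Among the non-ATPase subunits of the 19S particle, the ubiquitin receptor gene and the lid gene Psmd7 stood highest. Psmd7, whose product pairs with the deubiquitinase of the lid, was at 11.6, 17.02, 15.1 and 14.5 FPKM in controls and 20.4, 19.98, 23.0 and 21.5 FPKM in nitroglycerin libraries. The groups were apart, the log2 difference was 0.53 (SE 0.14, adjusted p = 0.0638 by limma), and after rescaling it was 0.16 (SE 0.08, adjusted p = 0.461) with the groups still apart. Psmd4, which encodes a receptor for ubiquitin chains, was at 3.57, 4.69, 4.69 and 4.42 FPKM in controls and 5.77, 6.47, 7.18 and 5.78 FPKM in nitroglycerin libraries. It differed by 0.45 (SE 0.12, adjusted p = 0.0639) as deposited and 0.13 (SE 0.09) after rescaling. Psmd14, the deubiquitinase gene and the least abundant of the particle, was at 2.54, 3.77, 3.19 and 4.16 FPKM in controls and 4.15, 4.03, 4.29 and 4.17 FPKM in nitroglycerin libraries. Its controls spread widely while its nitroglycerin libraries were nearly equal, and the groups overlapped at control 4.

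Other genes of this group stood on the low side after rescaling. Psmd2, a large scaffold subunit of the base, was at 9.59, 13.3, 12.6 and 13.0 FPKM in controls and 13.2, 13.6, 14.96 and 13.5 FPKM in nitroglycerin libraries. After rescaling it was at 12.9, 13.3, 13.9 and 14.4 FPKM in controls and 11.4, 12.8, 12.6 and 11.1 FPKM in nitroglycerin libraries. The groups overlapped as deposited and were apart in the lower direction after rescaling, with a log2 difference of -0.18 (SE 0.08, adjusted p = 0.445 by limma). Psmd8 was at 9.78 to 12.9 FPKM in controls and 9.33 to 14.6 FPKM in nitroglycerin libraries, and as for Psmb1 the lowest of the 8 was nitroglycerin 3. The 11 genes had a median log2 difference of 0.31 as deposited, close to that of all genes, and -0.03 after rescaling, when 5 were above 0 and 6 below.

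**Figure D3:**
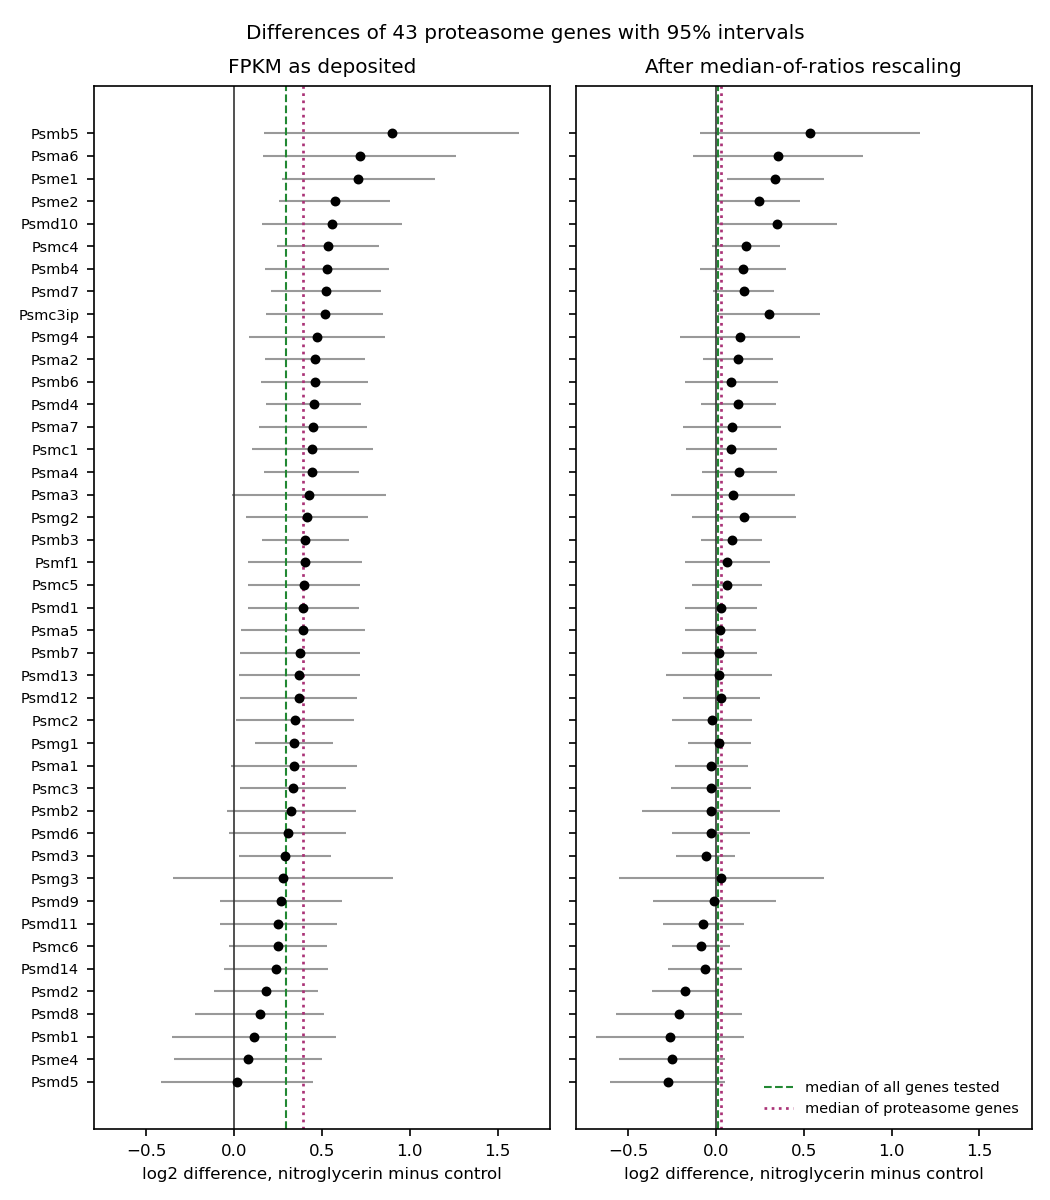
Log2 difference, nitroglycerin minus control, of the 43 tested genes (points) with 95% intervals from the fit across all genes (lines), as deposited (left) and after rescaling (right). All points lie right of 0 on the left, around a median of 0.39, and they lie on both sides of 0 on the right, around a median of 0.03.

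The assembly chaperones are not part of the finished particle. Psmg1 and Psmg2 encode a pair that builds the alpha ring, and Psmg3 and Psmg4 a further pair. Psmg1 was at 3.83, 4.19, 4.53 and 4.47 FPKM in controls and 5.68, 5.33, 5.88 and 5.72 FPKM in nitroglycerin libraries, apart by 0.34 (SE 0.10, adjusted p = 0.0685 by limma) as deposited and by 0.02 (SE 0.08) after rescaling. Psmg2 was at 1.24 to 2.22 FPKM in controls and 2.13 to 3.18 FPKM in nitroglycerin libraries, Psmg3 at 0.969 to 2.34 and 1.25 to 4.10 FPKM, and Psmg4 at 4.52 to 6.22 and 6.17 to 9.96 FPKM. The groups of all 3 genes overlapped. Of the chaperones of the 19S base, Psmd10 (gankyrin) was the least abundant gene of the chaperones, at 0.534, 1.18, 1.36 and 0.792 FPKM in controls and 1.59, 1.74, 1.73 and 2.43 FPKM in nitroglycerin libraries. Its log2 difference was 0.56 (SE 0.18, adjusted p = 0.0785) as deposited and 0.35 (SE 0.15, adjusted p = 0.407) after rescaling, when nitroglycerin 1 at 1.37 and nitroglycerin 3 at 1.45 FPKM lay below control 3 at 1.49 FPKM. Psmd5, a further base chaperone, was at 2.07, 5.14, 3.95 and 3.53 FPKM in controls and 3.50, 3.64, 3.58 and 3.65 FPKM in nitroglycerin libraries. Its nitroglycerin libraries were all but equal within a wide control range, and its log2 difference was 0.02 (SE 0.19) as deposited and -0.28 (SE 0.14, adjusted p = 0.493) after rescaling.

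The activators open the barrel without the 19S cap. All 43 genes were above 0 as deposited and 28 of 43 after rescaling, when Psmb5, Psma6 and Psmd10 differed more than any activator gene. The genes of the interferon-responsive PA28 activator were above 0 under both scalings. Psme1, its alpha subunit, was at 10.98, 19.4, 14.7 and 14.6 FPKM in controls and 26.3, 19.2, 24.6 and 29.2 FPKM in nitroglycerin libraries. Nitroglycerin 2 and control 2 were nearly equal and the other three nitroglycerin libraries were above every control. It differed by 0.71 (SE 0.19, adjusted p = 0.066 by limma) as deposited and 0.34 (SE 0.12, unadjusted p = 0.0229, adjusted p = 0.324) after rescaling, the lowest rescaled p of the 43. Psme2, its beta subunit, was at 4.00, 5.68, 5.13 and 3.73 FPKM in controls and 7.37, 6.51, 8.08 and 7.30 FPKM in nitroglycerin libraries. The groups were apart as deposited and stayed apart after rescaling, at 4.13 to 5.70 against 6.002 to 6.80 FPKM, with log2 differences of 0.57 (SE 0.14, adjusted p = 0.0598) and 0.24 (SE 0.10, adjusted p = 0.408). Psme4, the activator PA200, was at 4.29, 8.14, 5.09 and 6.62 FPKM in controls and 6.33, 5.30, 5.94 and 7.75 FPKM in nitroglycerin libraries, fully overlapping. It differed by 0.08 (SE 0.19) as deposited and -0.25 (SE 0.13, adjusted p = 0.495) after rescaling. Psmf1, the inhibitor PI31, was at 5.36, 7.79, 6.03 and 5.04 FPKM in controls and 8.22, 7.55, 7.84 and 9.44 FPKM in nitroglycerin libraries, with control 2 inside the nitroglycerin range.

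Psme1 and Psme2 are close neighbours on chromosome 15, with Emc9 as the one protein-coding gene between them in the RefSeq annotation of GRCr8. Their promoters are shown because both genes were above 0 under both scalings, which also held for most of the 43 genes. The core of the interferon-stimulated response element, GAAA repeated after 2 free bases, was searched after the values were seen. On either strand it was present in 5 of 40 promoters, those of Psma4, Psmb3, Psmd7, Psme2 and Psmg4, against 3.92% of all promoters and 3.04% of those of tested genes. The windows of 250 bases are chr15:33038721-33038970 (plus strand) for Psme1 and chr15:33052752-33053001 (minus strand) for Psme2, with the match in capitals.
Psme1: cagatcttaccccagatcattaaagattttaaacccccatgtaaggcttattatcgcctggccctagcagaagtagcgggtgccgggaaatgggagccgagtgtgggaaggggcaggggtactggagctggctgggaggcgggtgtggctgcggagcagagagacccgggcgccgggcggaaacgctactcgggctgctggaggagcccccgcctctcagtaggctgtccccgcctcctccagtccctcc
Psme2: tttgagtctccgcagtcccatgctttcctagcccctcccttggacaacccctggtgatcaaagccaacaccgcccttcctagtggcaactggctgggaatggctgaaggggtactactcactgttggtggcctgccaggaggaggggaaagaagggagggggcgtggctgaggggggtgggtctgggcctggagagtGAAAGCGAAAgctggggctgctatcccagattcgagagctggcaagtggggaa
The match in Psme2 begins 53 bases before the start, and the window of Psme1 holds neither this core nor TGACNNNGC.

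**Figure D4:**
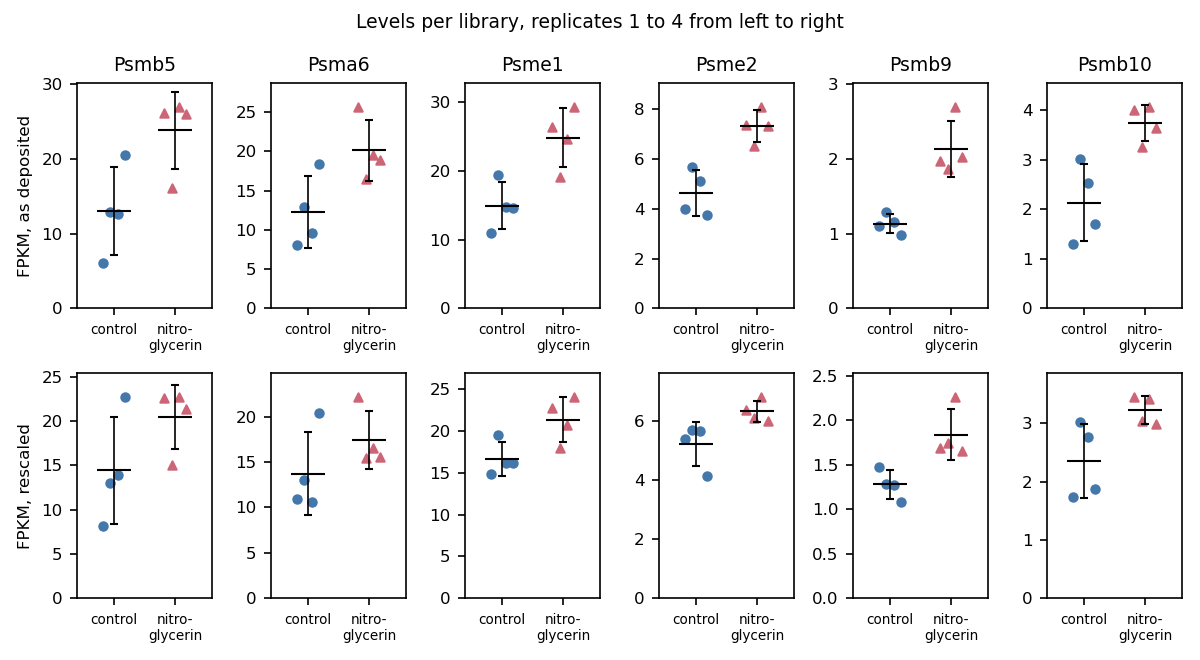
FPKM per library (vertical axes from 0) of Psmb5, Psma6, Psme1 and Psme2 and of the immunoproteasome genes Psmb9 and Psmb10, as deposited (top) and after rescaling (bottom), with replicates 1 to 4 in order, means as bars and SD as whiskers (n = 4). Psme2 and Psmb9 keep the groups apart in both rows, whereas the groups of Psmb5 and Psma6 overlap in both rows.

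The immunoproteasome genes Psmb8, Psmb9 and Psmb10 encode catalytic subunits that replace those of Psmb5, Psmb6 and Psmb7 under interferon. They were less abundant than their counterparts. Psmb9 was at 1.10, 1.28, 1.16 and 0.975 FPKM in controls and 1.96, 1.87, 2.69 and 2.02 FPKM in nitroglycerin libraries, apart by 0.55 on the log2 scale (SE 0.13, adjusted p = 0.0581 by limma) as deposited and 0.32 (SE 0.11, adjusted p = 0.311) after rescaling. Psmb10 was at 1.29, 3.00, 2.52 and 1.70 FPKM in controls and 4.00, 3.25, 4.06 and 3.64 FPKM in nitroglycerin libraries, with a log2 difference of 0.63 (SE 0.18, adjusted p = 0.0677) as deposited and 0.35 (SE 0.14, adjusted p = 0.366) after rescaling. Psmb8 was at 0.463, 1.45, 0.931 and 0.847 FPKM in controls and 1.75, 1.29, 1.15 and 1.78 FPKM in nitroglycerin libraries, and its groups overlapped.

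The share of one gene's FPKM in another's within a library does not depend on that library's scaling. The tested log2 ratio adds 1 FPKM to each value, which does depend on it, and at values near 1 FPKM the addition weighs on the ratio, so each ratio is also given without it. Psmb10 was 15.96, 25.04, 21.0 and 18.6% of Psmb7 in controls 1 to 4 and 29.7, 27.2, 28.7 and 24.8% in nitroglycerin libraries 1 to 4, so that only nitroglycerin 4 fell below a control. The mean log2 ratio with the addition was higher by 0.25 (two-sided exact permutation p = 0.0571 over 70 splits, Benjamini-Hochberg adjusted p over 3 ratios = 0.171). Without it the difference was 0.47 (exact permutation p = 0.0571, adjusted p = 0.0857). Psmb9 was 7.46, 6.96, 6.65 and 5.94% of Psmb6 in controls and 8.62, 7.72, 10.02 and 10.1% in nitroglycerin libraries, and these groups did not overlap. The log2 ratio differed by 0.10 with the addition (exact permutation p = 0.343, adjusted p = 0.343) and by 0.43 without it (exact permutation p = 0.0286, adjusted p = 0.0857). Psmb8 was 4.12 to 11.2% of Psmb5 in controls and 4.29 to 8.05% in nitroglycerin libraries, with a log2 difference of -0.51 (exact permutation p = 0.171, adjusted p = 0.257) and, without the addition, of -0.18 (exact permutation p = 0.60, adjusted p = 0.60). None of the 3 reached an adjusted p under 0.05 in either form, and 4 against 4 libraries allow no exact permutation p below 0.0286. Where only 1 of the 3 ratios is at that p its adjusted p is 0.0857, so 1 ratio by itself could not pass.

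The wider pathway was read from lists of 35 genes, of which 33 had a row and 29 could be tested. By limma 0 of 29 were called under either scaling, and 0 were lower at an unadjusted p under 0.05, where 12 were higher with the deposited values (34.1% of all genes) and 4 with the rescaled ones (5.5%). Their median was 0.36 with the deposited and 0.03 with the rescaled values, beside 0.30 and 0.01 for all genes. The 4 were Psmb9, Psmb10, Ngly1 and Nfe2l2. Nfe2l2, the antioxidant transcription factor, was at 6.18, 8.45, 6.98 and 7.29 FPKM in controls and 13.1, 9.42, 11.4 and 12.3 FPKM in nitroglycerin libraries, apart under both scalings. It differed by 0.61 (SE 0.14, adjusted p = 0.0581) as deposited and 0.26 (SE 0.09, adjusted p = 0.311) after rescaling. Nfe2l1, which induces proteasome genes when degradation is blocked, was at 19.4, 27.3, 26.0 and 21.6 FPKM in controls and 34.9, 27.2, 31.2 and 36.8 FPKM in nitroglycerin libraries. Control 2 and nitroglycerin 2 were nearly equal there, and the log2 difference after rescaling was 0.08 (SE 0.10). Ngly1, whose product removes sugars from the Nfe2l1 protein, was at 2.19 to 3.95 FPKM in controls and 3.90 to 5.67 FPKM in nitroglycerin libraries.

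Partners of the particle were also read. Pomp, the maturation factor of the 20S particle, was at 5.42, 6.74, 5.92 and 5.80 FPKM in controls and 8.21, 9.10, 8.91 and 8.11 FPKM in nitroglycerin libraries, apart by 0.46 (SE 0.11, adjusted p = 0.0581 by limma) as deposited and by 0.12 (SE 0.09) after rescaling. Its value is uncertain because a Pomp-like row averaged 8.63 FPKM beside the 7.28 FPKM of Pomp. The ubiquitin receptor gene Adrm1 was at 7.82 to 10.5 FPKM in controls and 7.96 to 12.7 FPKM in nitroglycerin libraries, and the deubiquitinase gene Usp14 at 5.36 to 7.45 and 6.77 to 9.36 FPKM. Both pairs of groups overlapped. Ubb, which encodes ubiquitin, was at 36.4, 26.9, 119.1 and 23.7 FPKM in controls and 35.0, 29.2, 37.9 and 39.9 FPKM in nitroglycerin libraries, with control 3 far above the rest. Its log2 difference as deposited was -0.21 (SE 0.45), and 0.30 without control 3. After rescaling it was -0.59 (SE 0.46), and it was below 0 in all 18 rescaled settings, without control 3 included.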

How the data were processed

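RNA depleted of ribosomal RNA was sequenced, per the labels' protocols. In the submitters' processing notes stand HISAT2 2.0, StringTie 1.3.0, Bowtie 0.12.2 and the builds Rnor_6.0 and mm8, without their roles. The authors deposited FPKM per gene, and for lncRNA transcripts FPKM, coverage per base and coding-potential scores, per the file headers. Coverage divided by FPKM gave the aligned sequence, and read counts and scores were not used. Rows at or above 1 FPKM in 4 or more libraries were tested as log2(FPKM + 1), which understates differences of low genes, with limma 3.58.1 (trend) in R 4.3.3. Calls needed a Benjamini-Hochberg adjusted p under 0.05. Simulated log2 differences of 0.585, 1 and 2 were recovered in 25.4%, 50.7% and 84.8% among 12977 genes, with 6 of 113 calls false. Unlike the deposited values, the simulated ones had noise independent between genes and no shift shared across a library. These rates therefore need not hold for the deposited values. Plots were drawn with matplotlib 3.10.9 in Python 3.11.15. The members and lists were chosen with earlier results of these data known. Genes were named by rule: the 5 lowest p in each direction under each scaling, the highest and lowest mean FPKM of each role group, listed catalytic, receptor, activator and chaperone genes, and members under the filter. Psma3, Psma6, Psmc6, Nfe2l2, Ngly1, Esam, Eng, Cd163, Ckm, Acta2, Myh11, Cnn1 and Lmod1 fall outside it and were chosen after their values were seen. Alternatives changed the filter, pseudocount, scaling and variance options, added the replicate number or an adipocyte score to the model, or left out 1 library. A listed gene is not reported here.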

Additional observations from a re-analysis of the deposited data

Results flagged for a closer look

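Of 150 groups of 4 libraries examined for proteasome and pathway genes, 3 (2%) had 1 library far from the other three by Dixon's criterion, where chance gives about 1 in 20. Psma5, a gene of the alpha ring, was at 9.96 FPKM in control 1 and at 14.4 to 14.7 FPKM in the other controls. After rescaling Psma5 was at 13.4 FPKM in control 1 and at 14.7 to 16.03 FPKM in the others, no longer past the criterion. Psmb5 was at 16.1 FPKM in nitroglycerin 2 and at 26.0 to 26.9 FPKM in the other nitroglycerin libraries, and after rescaling at 15.05 against 21.4 to 22.7 FPKM. Ubb, a gene of ubiquitin, was at 119.1 FPKM in control 3 and at 23.7 to 36.4 FPKM in the other controls. After rescaling Ubb was at 131 FPKM in control 3 and at 26.2 to 49.0 FPKM in the others, also no longer past the criterion.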

How the results depend on the processing

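Under the rescaled values no proteasome gene was called in any alternative. As deposited 0 were called, with 7 when at least 1 FPKM was required in all 8 libraries, 4 with annotated rows only and 13 with array weights. The 4 and the 13 include Psmc3ip. Pathway genes went from 0 to 7, 6 and 9, and all genes from 175 to 1178, 828 and 1936 under the same settings. All genes gave 7 with a pseudocount of 0.1, 26 with no filter, 15 after quantile normalization, 4 with the adipocyte score as covariate and 17 after rescaling. With the replicate number as a block 0 genes were called under either scaling, proteasome genes included. Same-numbered libraries correlated at 0.13, -0.01, -0.01 and 0.12 and did not all correlate best with their own number, so the numbers were not taken to pair the libraries. After rescaling, all genes gave 6 with the adipocyte covariate. Leaving out each library in turn gave 0 proteasome genes throughout, 0 to 1 pathway genes (1 without nitroglycerin 2) and 5 to 284 of all genes as deposited, with 12, 65, 8 and 5 without controls 1 to 4 and 10, 284, 7 and 5 without nitroglycerin 1 to 4. After rescaling the range was 1 to 31 genes, with 2 and 1 without controls 2 and 4 and 6, 31, 7 and 3 without nitroglycerin 1 to 4. The cause of these shifts was not tested.

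Single log2 differences changed sign where the scaling removed the general shift. On rescaling they became -0.026 for Psma1, -0.26 for Psmb1, -0.030 for Psmb2, -0.022 for Psmc2, -0.028 for Psmc3, -0.088 for Psmc6, -0.18 for Psmd2, -0.059 for Psmd3, -0.029 for Psmd6, -0.21 for Psmd8, -0.072 for Psmd11, -0.064 for Psmd14, -0.28 for Psmd5, -0.0089 for Psmd9, -0.25 for Psme4, -0.21 for Adrm1 and -0.10 for Usp14. After quantile normalization they were -0.15 for Psmb1, -0.044 for Psmc6, -0.12 for Psmd2, -0.15 for Psmd8, -0.050 for Psmd11, -0.068 for Psmd14, -0.27 for Psmd5, -0.031 for Psmd9, -0.22 for Psme4, -0.13 for Adrm1 and -0.046 for Usp14. With array weights Psmd5 was at -0.041. With each library left out in turn, Psmd5 ran from -0.17 (without control 1) to 0.16, Psme4 from -0.046 (without control 1) to 0.22, with -0.0083 without nitroglycerin 4, and Ubb from -0.46 to 0.30 (without control 3). Read counts were not analysed here, so no counting interval bounds the low genes.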
